A study of Schizosaccharomyces pombe with 29 samples.

Results

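A set of 10 genes of DNA precursor synthesis and of the switch into S phase were followed in fission yeast (Schizosaccharomyces pombe) with RNase H removed or added. They are the rows named cdc22, suc22, spd1, cdt2, cdc18, cdt1, mik1, cig2, cdc10 and res2, chosen by name, and they make up 10 of the 7016 genes in the deposited table. All 10 were measured, at 240 to 9400 normalized counts, and all 10 entered the tests. The table covers 8 RNA-seq libraries of total RNA. The rnh1∆rnh201∆ strain, with 2 libraries, lacks rnh1 (RNase H1) and rnh201 (the catalytic subunit of RNase H2). The pRnhA cells, with 3 libraries, carry extra RNase H activity by overexpression of rnhA from Escherichia coli; the promoter and vector are not given in the labels. The WT cells, with 3 libraries, carry no listed mutation. All 3 groups were grown in PMG, a minimal medium, and kept at 34 °C for 3 hours before harvest. The labels do not say whether replicates were separate cultures, so the p-values measure the spread between these libraries only. They name no cell cycle synchrony either, and in such bulk RNA fewer cells in a stage and less RNA per cell cannot be told apart.

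RNase H cuts the RNA strand of RNA-DNA hybrids. Ribonucleotide reductase makes the deoxyribonucleotides for DNA synthesis from a large subunit, Cdc22, and a small subunit, Suc22; the small protein Spd1 restrains the enzyme until the Cdt2 ubiquitin ligase adaptor has it destroyed in S phase or after DNA damage. Many S-phase genes are driven by MBF, a DNA-binding complex of Cdc10 with Res1 and Res2, which binds MluI cell cycle boxes with the core ACGCG. Known targets include cdc22, the licensing genes cdc18 and cdt1, the mitosis-delaying kinase gene mik1 and the S-phase cyclin gene cig2.

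The boxes are shown first, to set apart the genes with a match to the core near their annotated start. The deposited table holds no coordinates, so sequences and positions are those of RefSeq assembly ASM294v3, in which all 10 genes were found by symbol. In each gene the window of 500 bases before to 100 bases after the annotated transcript start was searched for ACGCG on both strands (ACGCG or CGCGT, with overlaps; the palindrome ACGCGT holds both). Matches were found in 7 of the 10 genes: 7 separate stretches in cdc22, 5 in cdc18, 5 in mik1, 4 in cdt2, 3 in cig2, 2 in cdt1 and 1 in cdc10. None was found in the windows of suc22, spd1 and res2. Of 5112 windows of the same length at protein-coding genes, 18.9% held at least 1 match, 5.11% held ACGCGT and 0.548% held at least 3 separate stretches. For each gene the 30 bases with the most matches are printed 5′ to 3′ on the gene's own strand, with matches in capitals. Where places in the window tied, the first is printed.
cdc22, chrI:4226514-4226543, plus strand, bases -456 to -427 from the transcript start: gtCGCGTCGCGTtgcaattgagACGCGTaa
cdt2, chrI:2035743-2035772, minus strand, bases -68 to -39: cacggACGCGTCGCGTtcACGCGTcacgaa
cdc18, chrII:2218019-2218048, minus strand, bases -64 to -35: tttCGCGTttacgtgtCGCGTCGCGTatat
cdt1, chrII:477306-477335, plus strand, bases -86 to -57: agctACGCGACGCGTcaacaaACGCGacac
mik1, chrII:221338-221367, plus strand, bases 41 to 70 after the start: aaaaACGCGaACGCGTcatgACGCGTcgta
cig2, chrI:2709709-2709738, plus strand, bases -73 to -44: aagCGCGTttctCGCGTCGCGTCGCGTtta
cdc10, chrII:2764187-2764216, minus strand, bases -416 to -387: tttatttcgACGCGTCGCGTtctatatatg
In cdt2, cdc18, cdt1 and cig2 these stretches lay just before the transcript start. The cdc22 gene also held stretches near its start, at bases -93 to -84, -62 to -57 and -52 to -47, which are not in the bases printed. Those of mik1 lay after the start, in the annotated leader before the start codon. A match is a run of letters and not a measured binding site.

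**Figure D1:**
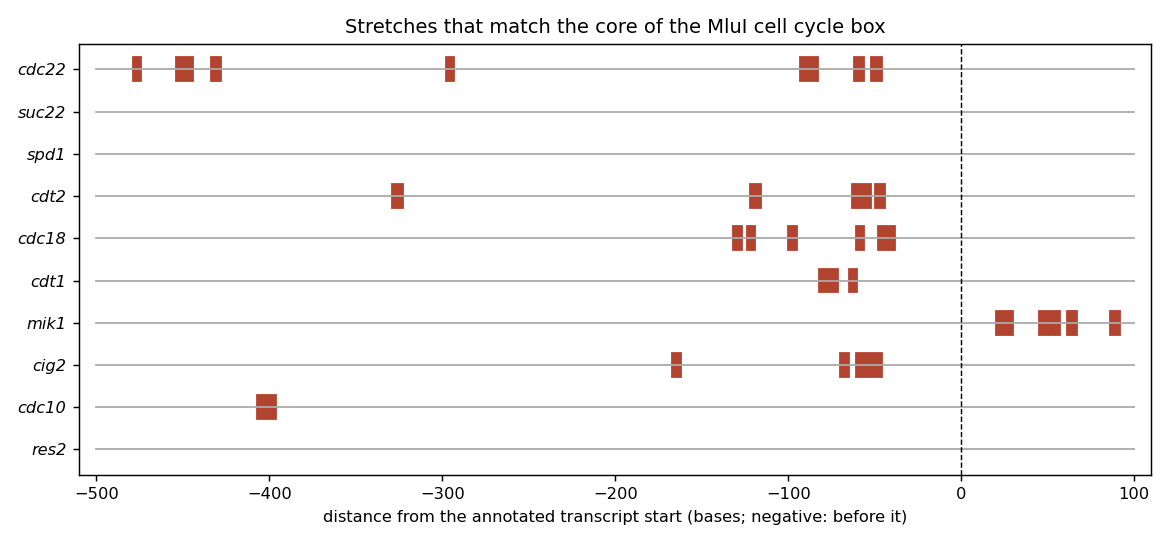
Positions of the stretches matching ACGCG on either strand (bars) in the window of 500 bases before to 100 bases after the annotated transcript start (dashed line) of each gene; the x axis is the distance in bases. The cdc22 row holds 7 stretches and the rows of suc22, spd1 and res2 hold none.

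The 8 libraries summed to between 8392168 and 9455805 normalized counts, and their sequencing depth is unknown. The deleted genes matched the labels, with rnh1 at 36 and 23 in the rnh1∆rnh201∆ libraries and at 290 to 320 in the other libraries. The libraries also split by mating-type transcript. WT and pRnhA replicates 1 and 2 and rnh1∆rnh201∆ replicate 2 held mat1-Mc (710 to 820), and WT and pRnhA replicate 3 and rnh1∆rnh201∆ replicate 1 held mat2-Pc (460 to 640). Every deposited value has at most 2 significant digits, and for these 10 genes the error from rounding is at most between 0.521% and 4.17% of the value. Of 6 genes of mating type and starvation state, only mei2, a regulator of meiosis, was called in pRnhA (-0.77, limma adjusted p 0.017) and none in rnh1∆rnh201∆. Over all genes 11.4% were called lower in pRnhA. This list had no call in pRnhA when WT replicate 2 or 3 or pRnhA replicate 1 or 2 was left out.

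Against WT, 4 of the 10 genes were lower in pRnhA past the threshold (limma-trend on log2(value + 1), Benjamini-Hochberg adjusted p under 0.05 over 6456 genes): mik1, cdt2, cdc22 and cig2. None was higher. Over all genes tested 20.2% were called in pRnhA, 11.4% lower and 8.88% higher. An unadjusted p under 0.05 was reached by 6 of the 10 and by 35.6% of all genes. In rnh1∆rnh201∆ no gene of the 10 was called, where 0.294% of all genes were, and 4 of the 10 (cdc22, cdt1, mik1 and res2, all lower) had an unadjusted p under 0.05, against 21.3% of all genes. The authors' deposited table has 6 of the 10 past 0.05 in pRnhA and 2 in rnh1∆rnh201∆, where 32.4% and 15.4% of its genes with a value are past it. In pRnhA 5 of the 10 genes had every library below every WT library, as had 18.1% of all genes, and none had every library above, as had 15.6%. In rnh1∆rnh201∆ 4 of the 10 lay wholly below WT and 1 (suc22) wholly above, against 13.9% and 15.0% of all genes. The median log2 fold change of the 10 genes was -0.22 in pRnhA and -0.18 in rnh1∆rnh201∆, beside 0.00 and 0.01 over all genes. Both comparisons share the WT libraries.

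**Figure D2:**
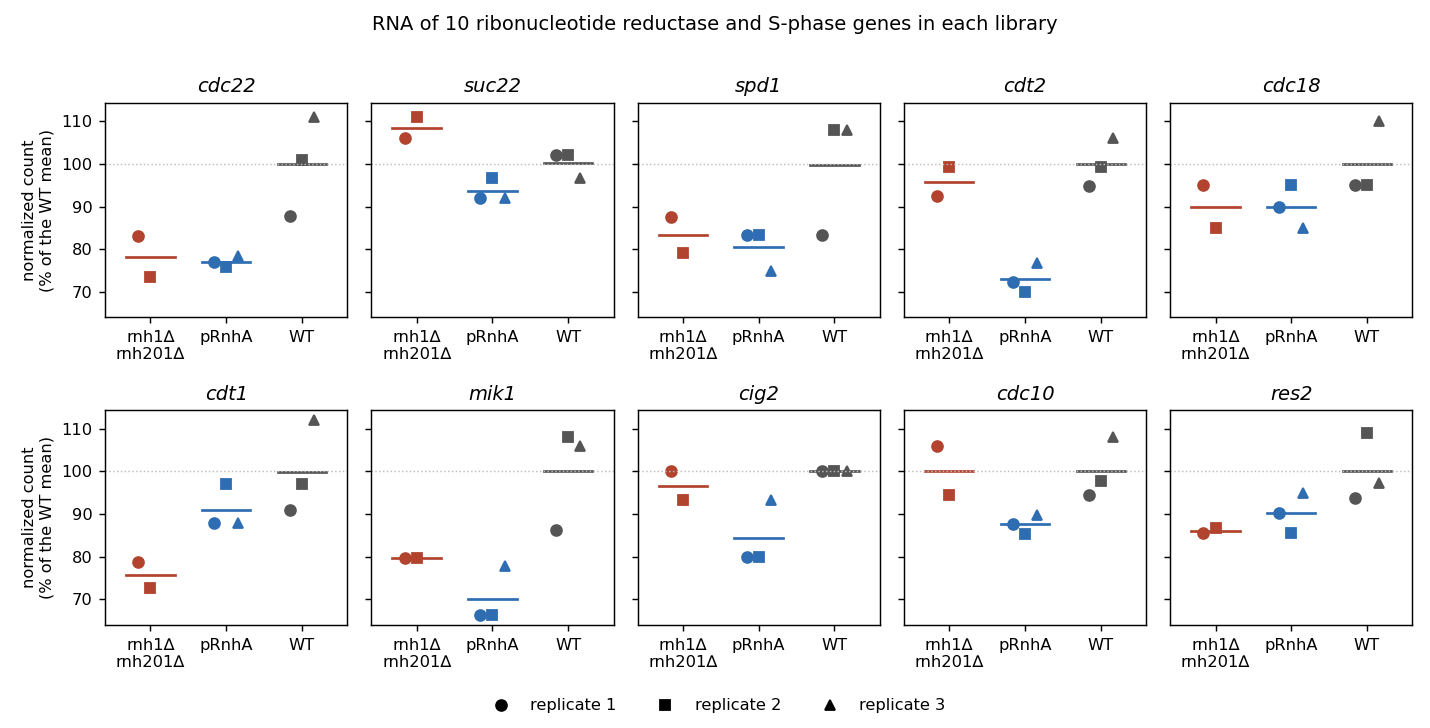
Normalized count of each gene in each library, as a percentage of the gene's WT mean (y axis), for rnh1∆rnh201∆, pRnhA and WT; points are libraries with the replicate number as shape, and lines are group means. The pRnhA points of cdc22, cdt2, mik1, cig2 and cdc10 lie below every WT point.

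Of the ribonucleotide reductase subunits, the large one fell in pRnhA and the small one was called in neither strain. The cdc22 RNA stood at 7000 and 6200 normalized counts in rnh1∆rnh201∆, at 6500, 6400 and 6600 in pRnhA, and at 7400, 8500 and 9400 in WT. Every library of both altered strains lay below every WT library, and the WT libraries were the most widely spread. The means were 6600 ± 566 in rnh1∆rnh201∆ (SD, n = 2), 6500 ± 100 in pRnhA and 8433 ± 1002 in WT (SD, n = 3 each), so that rnh1∆rnh201∆ stood at 78.3% of WT and pRnhA at 77.1%. The log2 fold change was -0.37 in pRnhA (SE 0.10, limma adjusted p 0.031) and -0.35 in rnh1∆rnh201∆ (SE 0.11, limma adjusted p 0.13), so only the pRnhA change passed. In the authors' deposited table both are past 0.05, at an adjusted p listed as 0. The rnh1∆rnh201∆ value was called at -0.44 without WT replicate 1, and not when any other single library was left out. The fit without WT replicate 1 also called 7 core histone genes lower in rnh1∆rnh201∆, against 2 with every library. Its added calls were thus not particular to these 10 genes. The strains differed by 0.02 on the log2 scale, with a 95% interval of -0.23 to 0.27. An annotated non-coding gene lies on the opposite strand of the whole cdc22 transcript, and whether counting used strand is not given in the sources used here, so antisense reads may be part of its values.

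The suc22 RNA had 2200 and 2300 normalized counts in rnh1∆rnh201∆, 1900, 2000 and 1900 in pRnhA, and 2100, 2100 and 2000 in WT. The rnh1∆rnh201∆ libraries lay above all others and the pRnhA libraries overlapped WT. Its log2 fold changes of 0.12 and -0.10 were not past the threshold (limma adjusted p 0.27 and 0.22), nor was the difference of 0.22 between rnh1∆rnh201∆ and pRnhA (95% interval 0.09 to 0.35, limma adjusted p 0.18). Scaling to library totals shifted the median over all genes to 0.11 in pRnhA and to 0.07 in rnh1∆rnh201∆; on that scale the pRnhA value of suc22 was 0.01.

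The ratio of cdc22 to suc22 within a library does not depend on how libraries were scaled. Since the genes differ in length, the ratio has no meaning in molecules and only its differences between libraries are read. It was 3.18 and 2.70 in rnh1∆rnh201∆, 3.42, 3.20 and 3.47 in pRnhA, and 3.52, 4.05 and 4.70 in WT. As listed, all 5 libraries of the altered strains were below the lowest WT library, WT replicate 1, although pRnhA replicate 3 came close to it. An exact two-sided permutation test over libraries gave p = 0.20 for rnh1∆rnh201∆ and p = 0.10 for pRnhA against WT. The smallest p that either design allows is 0.10. Because the deposited values are rounded, the order of pRnhA replicate 3 and WT replicate 1 is uncertain, and with it the p for pRnhA.

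The inhibitor gene spd1 and the adaptor gene cdt2, whose product marks Spd1 for destruction, are given next. Normalized counts of spd1 were 2100 and 1900 in rnh1∆rnh201∆, 2000, 2000 and 1800 in pRnhA, and 2000, 2600 and 2600 in WT. WT replicate 1 lay among the libraries of the altered strains. The log2 fold changes of -0.25 (limma adjusted p 0.27) and -0.30 (limma adjusted p 0.081) did not pass; for pRnhA the adjusted p listed in the authors' deposited table is 0.01. Without WT replicate 1 they were -0.38 and -0.43, both called, and neither was called when any other single library was left out.

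The cdt2 RNA had 410 and 440 normalized counts in rnh1∆rnh201∆, 320, 310 and 340 in pRnhA, and 420, 440 and 470 in WT. The 3 pRnhA libraries were the lowest of all 8, below the 2 rnh1∆rnh201∆ libraries as well. In pRnhA cdt2 fell by 0.45 on the log2 scale (SE 0.08, limma adjusted p 0.0084), to 72.9% of WT, and in rnh1∆rnh201∆ it was at -0.06 (limma adjusted p 0.73). The change in pRnhA was -0.45 within the libraries with mat1-Mc and -0.47 within those with mat2-Pc. The strains differed by 0.39 (95% interval 0.20 to 0.59, unadjusted p 0.0015), which did not pass over all genes (limma adjusted p 0.13). The annotated cdt2 transcript shares 188 bases with the gene SPAC17H9.18c on the same strand, which was listed at 0 to 4 in all libraries.

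The licensing genes cdc18 and cdt1, whose products load the replicative helicase onto origins, were not called in either strain. Normalized counts of cdc18 were 1900 and 1700 in rnh1∆rnh201∆, 1800, 1900 and 1700 in pRnhA, and 1900, 1900 and 2200 in WT, so all groups overlapped. Its log2 fold change was -0.15 in both strains (limma adjusted p 0.37 and 0.22). The cdt1 RNA had 260 and 240 normalized counts in rnh1∆rnh201∆, 290, 320 and 290 in pRnhA, and 300, 320 and 370 in WT. Here the rnh1∆rnh201∆ libraries were the lowest of the 8. The log2 fold change of cdt1 was -0.39 in rnh1∆rnh201∆ (SE 0.11, limma adjusted p 0.11) and -0.13 in pRnhA (limma adjusted p 0.38), the most negative value of the 10 genes in the deletion strain. In rnh1∆rnh201∆ cdt1 was called at -0.46 without WT replicate 1, and not when any other single library was left out. For that strain its adjusted p in the authors' deposited table is 0.02. The strain difference of -0.26 had a 95% interval of -0.52 to -0.01 and was not called (limma adjusted p 0.39).

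Among the 10 genes, mik1 and cig2, which act on the cyclin-dependent kinase Cdc2, were both called lower in pRnhA. The kinase gene mik1, whose product inhibits Cdc2 in S phase, had 480 and 480 normalized counts in rnh1∆rnh201∆, 400, 400 and 470 in pRnhA, and 520, 650 and 640 in WT. The groups did not overlap in any pairing, with pRnhA lowest. In pRnhA mik1 fell by 0.51 on the log2 scale (SE 0.11, limma adjusted p 0.016), to 70.2% of WT, the largest change among the 10 genes. In rnh1∆rnh201∆ it was at -0.32 (SE 0.12, limma adjusted p 0.17). There it was called at -0.43 without WT replicate 1, and not when any other single library was left out. A non-coding gene on the opposite strand overlaps 86.8% of the annotated mik1 transcript. The cyclin gene cig2 had 1500 and 1400 normalized counts in rnh1∆rnh201∆, 1200, 1200 and 1400 in pRnhA, and 1500, 1500 and 1500 in WT. Its fall in pRnhA was -0.25 (SE 0.07, limma adjusted p 0.042), and in rnh1∆rnh201∆ it was at -0.05 (limma adjusted p 0.76). At this level values are given in steps of 100, and the highest pRnhA library was 1 step below WT. The annotated cig2 transcript overlaps pmc1 on the opposite strand over 33.3% of its length. The pmc1 row was at 1700 and 1800 in rnh1∆rnh201∆, 1800, 1900 and 1800 in pRnhA and 1900, 1600 and 1700 in WT. The row cig2-antisense-1 was at 73 to 140. The part of such reads in the cig2 values was not tested.

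Neither MBF subunit gene among the 10 was called. Normalized counts of cdc10 were 940 and 840 in rnh1∆rnh201∆, 780, 760 and 800 in pRnhA, and 840, 870 and 960 in WT. The pRnhA libraries lay below all others, at a log2 fold change of -0.19 that did not pass (SE 0.07, limma adjusted p 0.097), and the rnh1∆rnh201∆ value was 0.00 (95% interval -0.18 to 0.18). Without WT replicate 1 the pRnhA change was called at -0.23, and it was not called when any other single library was left out. Its adjusted p in the authors' deposited table is 0.03. The cdc10 gene lies 5 protein-coding genes away from rnh1 on chromosome II, and vps52 overlaps 15.4% of its length on the opposite strand. The res2 RNA had 730 and 740 normalized counts in rnh1∆rnh201∆, 770, 730 and 810 in pRnhA, and 800, 930 and 830 in WT. Its log2 fold changes were -0.21 and -0.15 (limma adjusted p 0.18 and 0.19).

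**Figure D3:**
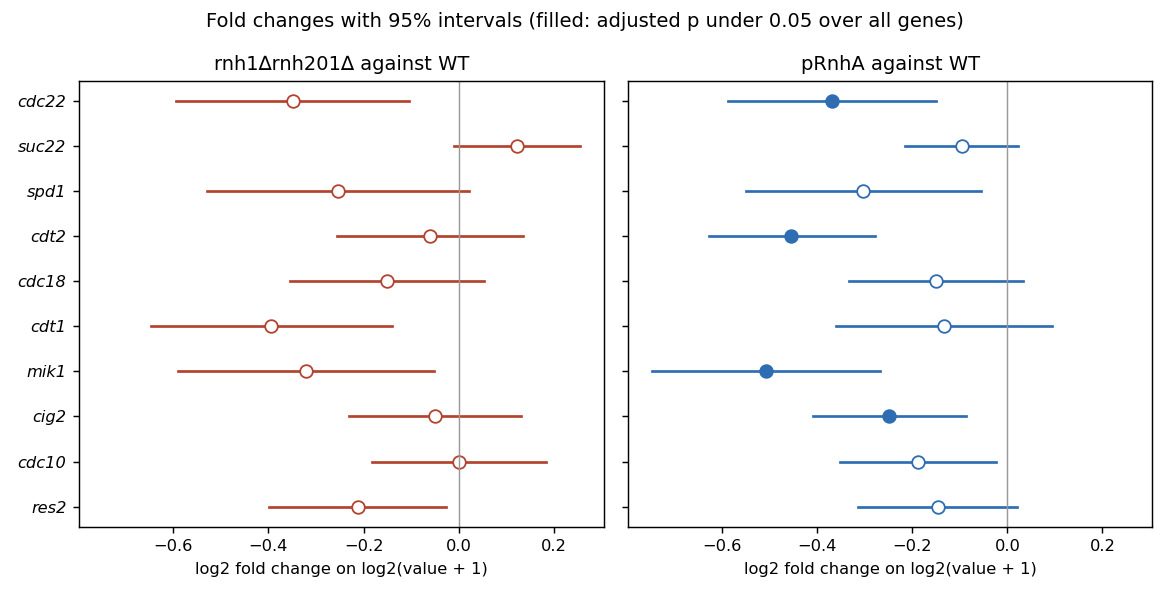
Log2 fold change on the log2(value + 1) scale (x axis) of each gene in rnh1∆rnh201∆ and in pRnhA against WT, with 95% intervals from limma; filled points have an adjusted p under 0.05 over all genes. The filled points are cdc22, cdt2, mik1 and cig2 in pRnhA, between -0.25 and -0.51.

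The 4 calls in pRnhA changed with the libraries used. In the 8 fits that each left out 1 library, cdt2 was called in 7, mik1 in 4, cdc22 in 3 and cig2 in 2, and all 10 genes stayed negative in each of the 8. Leaving out pRnhA replicate 2 took all 4 calls, with cdt2 at -0.42, mik1 at -0.47, cdc22 at -0.36 and cig2 at -0.21, and 212 of all genes called, against 1306 with every library. Leaving out pRnhA replicate 1 or WT replicate 2 or 3 left only cdt2 called. Then mik1 was at -0.47, -0.45 and -0.46, cdc22 at -0.37, -0.36 and -0.29, and cig2 at -0.21, -0.25 and -0.25. Leaving out pRnhA replicate 3 cost cdc22 its call, at -0.38, and leaving out either rnh1∆rnh201∆ library, which enters through the shared estimate of spread, cost cig2 its call at -0.25. Leaving out WT replicate 1 gave 6 calls, with spd1 and cdc10 added. Within the libraries with mat1-Mc alone (1 rnh1∆rnh201∆, 2 pRnhA and 2 WT) no gene of the 10 was called in pRnhA, and none of 6439 genes tested was; 5 of the 10 had an unadjusted p under 0.05, against 1509 of all genes. All 10 were below 0 in pRnhA there and also in the single pRnhA library set against the single WT library with mat2-Pc. Scaled to library totals, 2 of the 10 were called in pRnhA (cdt2 and mik1), with cdc22 at -0.26 and cig2 at -0.14.

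**Figure D4:**
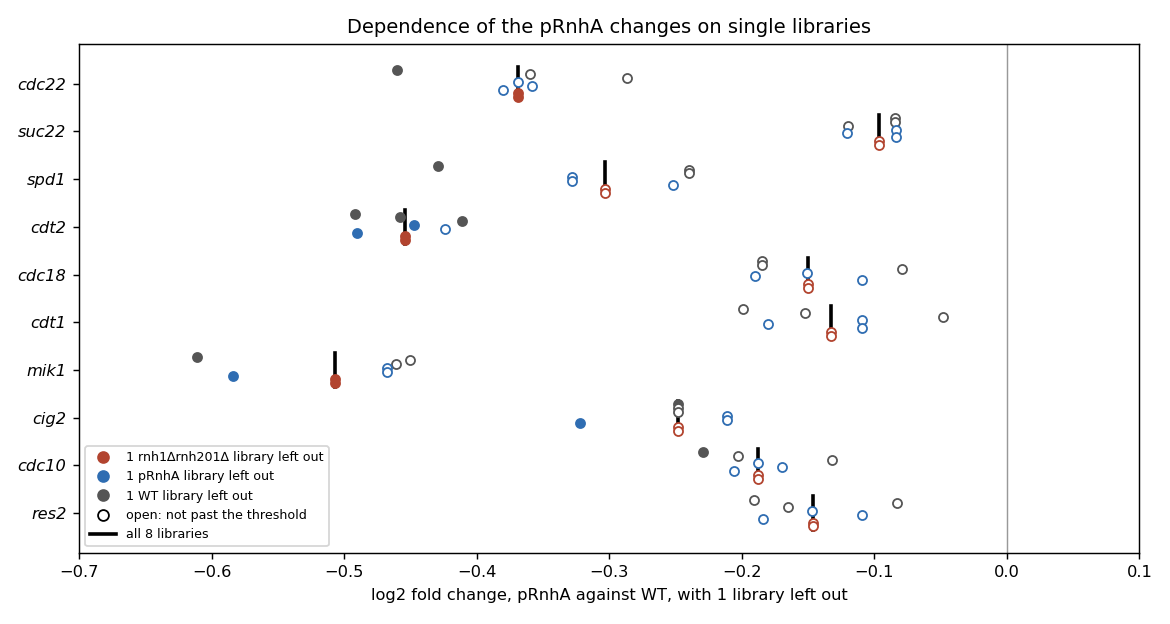
Log2 fold change of each gene in pRnhA against WT (x axis) with 1 library left out (points, coloured by the group of that library) and with all 8 libraries (black line); open points were not past the threshold. The cdt2 row has 7 filled points of 8 and every point of every gene is below 0.

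Between the strains directly no gene of the 10 was called (rnh1∆rnh201∆ against pRnhA, where 0.356% of all genes were). At an unadjusted p under 0.05 there were 5: cdt2, suc22, cig2 and cdc10 were higher in rnh1∆rnh201∆ and cdt1 was lower, against 12.5% of all genes. In 4 of the 10 genes the rnh1∆rnh201∆ libraries lay wholly above those of pRnhA and in 1, cdt1, wholly below, as did 17.9% and 14.1% of all genes.

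Of 5 genes for other parts of MBF and its regulators, none was called in rnh1∆rnh201∆. In pRnhA 1 was called lower, against 11.4% of all genes. That gene was yox1, which encodes an MBF co-repressor, with 350 and 360 normalized counts in rnh1∆rnh201∆, 280, 300 and 300 in pRnhA, and 330, 360 and 400 in WT (log2 fold change in pRnhA -0.30, limma adjusted p 0.043). It was no longer called when any single library other than WT replicate 1 was left out, nor with library totals. The co-repressor gene nrm1 was at -0.22 in both strains (limma adjusted p 0.20 in rnh1∆rnh201∆ and 0.09 in pRnhA). The subunit gene res1 was at 0.06 and 0.01, the activator gene rep1, which acts in meiosis, at -0.05 and 0.07, and the activator gene rep2 at 0.11 and -0.03 in rnh1∆rnh201∆ and pRnhA; none of these was called.

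The median of 13 further genes reported as MBF targets was -0.21 in pRnhA. Of these, 6 were called lower there, against 11.4% of all genes, and none higher. They were the mismatch repair gene msh6 (-0.33), tos4 (-0.32), the DNA end resection gene ctp1 (-0.32), the cohesin subunit genes psm3 (-0.28) and rad21 (-0.23), and the DNA polymerase alpha gene pol1 (-0.21), with limma adjusted p between 0.0064 and 0.042. The msh6 RNA had 1600 and 1600 normalized counts in rnh1∆rnh201∆, 1300, 1300 and 1300 in pRnhA, and 1600, 1600 and 1700 in WT. For tos4 the values were 3800 and 3500 in rnh1∆rnh201∆, 3500, 3300 and 3400 in pRnhA, and 4200, 4100 and 4400 in WT. In rnh1∆rnh201∆ none of the 13 was called and the median was -0.03. In pRnhA the count was 8 without WT replicate 1, 4 without WT replicate 3 or either rnh1∆rnh201∆ library, 2 without WT replicate 2, pRnhA replicate 1 or pRnhA replicate 3, and 1 without pRnhA replicate 2. Library totals gave 2 lower and 1 higher, with medians of -0.10 in pRnhA and 0.03 in rnh1∆rnh201∆, and a replicate block gave 4 lower. In rnh1∆rnh201∆ 2 were called lower and 1 higher without WT replicate 1.

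Of 9 genes listed around Spd1 turnover other than cdt2, which include its partner genes ddb1 and pcu4, none was called in either strain. The list also holds spd2, rad3 and cds1, whose products are not parts of the ubiquitin ligase. An unadjusted p under 0.05 was reached by 2 of the 9 in pRnhA, ddb1 and spd2, and by none in rnh1∆rnh201∆. Over all genes the shares were 35.6% and 21.3%. None of 6 genes for nucleotide supply and thiol reductants was called, with none in pRnhA and 1 in rnh1∆rnh201∆ at an unadjusted p under 0.05. Without WT replicate 1, 2 genes of the Spd1 list were called lower in pRnhA. Of the nucleotide supply genes, 2 were then called higher in pRnhA and 1 in rnh1∆rnh201∆. Library totals also gave 2 nucleotide supply genes higher in pRnhA. Of 23 genes of origin licensing and firing, 2 were called higher in pRnhA and none lower: the helicase subunit gene mcm3 (0.35, limma adjusted p 0.033) and the origin recognition subunit gene orc5 (0.24, limma adjusted p 0.042). The share called higher was near the 8.88% of all genes. Their median was 0.11 in pRnhA and 0.05 in rnh1∆rnh201∆, and 0.22 and 0.11 with library totals. Of 9 genes for Cdc2, its cyclins and its control, suc1 was called higher in pRnhA (0.44, limma adjusted p 0.016) and the G1 cyclin gene puc1 lower (-0.37, limma adjusted p 0.043), and none was called in rnh1∆rnh201∆, where 4 had an unadjusted p under 0.05. With 1 gene each way, these shares too were near those of all genes, 8.88% higher and 11.4% lower. A replicate block left 1 call among the licensing genes in pRnhA and took that of puc1. Without WT replicate 1, 2 licensing genes were called higher in rnh1∆rnh201∆, and of the Cdc2 list 1 was called higher and 2 lower there. Among the licensing genes in pRnhA, 4 were called higher without WT replicate 1, 1 without WT replicate 3 or either rnh1∆rnh201∆ library and none without any other single library, while library totals gave 11 higher. The list holding suc1 and puc1 had no lower call in 6 of the 8 fits that left out 1 library (all but those without WT replicates 1 and 3), and no higher call without WT replicate 2 or pRnhA replicate 1 or 2.

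Genes of another stage of the cycle were lower in pRnhA as well. Of 13 genes of the mitotic and late mitotic wave, 10 were called lower in pRnhA, against 11.4% of all genes, and none higher. The median of the 13 was -0.30. In rnh1∆rnh201∆ none was called and the median was -0.41. There 11 had an unadjusted p under 0.05, all lower, against 21.3% of all genes. The cell separation genes were among them: adg1, adg3, adg2 and the glucanase genes eng1 and agn1 fell by 0.52, 0.45, 0.32, 0.51 and 0.50 on the log2 scale in pRnhA (limma adjusted p 0.01 to 0.049). The adg1 RNA had 1100 and 1100 normalized counts in rnh1∆rnh201∆, 1200, 1100 and 1300 in pRnhA, and 1500, 1700 and 2000 in WT. In pRnhA the count was 11 without WT replicate 1, 6 without WT replicate 3 or either rnh1∆rnh201∆ library, 3 without pRnhA replicate 3, 1 without WT replicate 2 or pRnhA replicate 1, and 0 without pRnhA replicate 2, and library totals gave 2, with a median of -0.19. In rnh1∆rnh201∆ 10 were called without WT replicate 1 and none when any other single library was left out.

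Of the 9 core histone genes, expressed in S phase, 2 were called lower in rnh1∆rnh201∆ and 3 in pRnhA. Over all genes 0.294% were called in rnh1∆rnh201∆, in either direction, and 11.4% were called lower in pRnhA. The H2A gene hta2 had 1800 and 1800 normalized counts in rnh1∆rnh201∆, 2100, 1900 and 2100 in pRnhA, and 2500, 2700 and 2500 in WT, and was called in both strains (-0.51 and -0.34, limma adjusted p 0.045 and 0.01). The H3 gene hht3 was called in rnh1∆rnh201∆ (-0.49, limma adjusted p 0.048), and hhf1 (H4, -0.36) and htb1 (H2B, -0.35) in pRnhA (limma adjusted p 0.024 and 0.04). The medians were -0.49 in rnh1∆rnh201∆ and -0.16 in pRnhA, and no histone gene differed between these strains past the threshold. Similar gene copies are listed for H2A, H3 and H4, and how reads were split between them is uncertain and was not tested. The only H2B gene listed is htb1. In rnh1∆rnh201∆ 7 histone genes were called without WT replicate 1, 1 without WT replicate 3 and none when any other single library was left out. In pRnhA the count was 5 without WT replicate 1, 2 without pRnhA replicate 3 or either rnh1∆rnh201∆ library, 1 without WT replicate 2 or 3 or pRnhA replicate 1, and 0 without pRnhA replicate 2. Library totals gave 1 call and a median of -0.05 in pRnhA, with 6 of the 9 below 0, and 3 calls in rnh1∆rnh201∆. A replicate block gave 2 calls in pRnhA and none in rnh1∆rnh201∆. The part of the cell cycle stage of the cultures in the values of cdc22, mik1, cdt2 and cig2 was not tested.

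**Figure D5:**
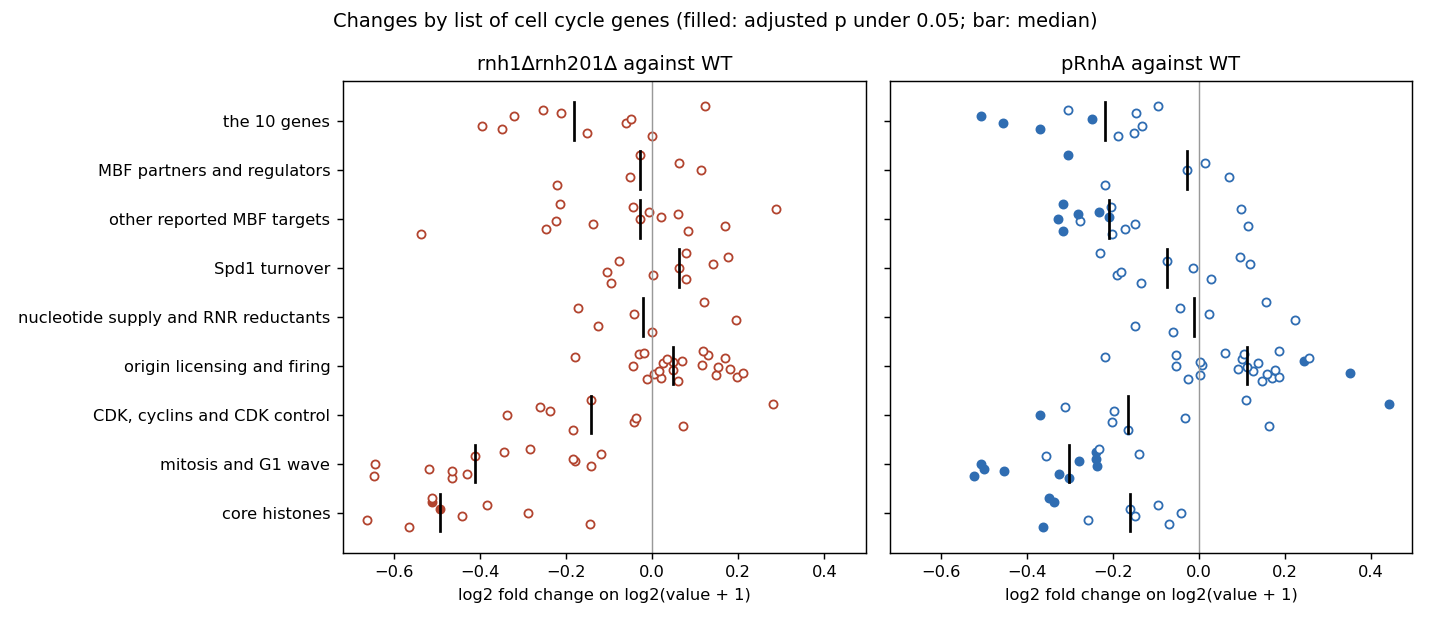
Log2 fold change on the log2(value + 1) scale (x axis) of every listed gene, by list, in rnh1∆rnh201∆ and in pRnhA against WT; filled points have an adjusted p under 0.05 and bars are medians. The mitotic and G1 wave holds 10 filled points in pRnhA and origin licensing has its median above 0 in both comparisons.

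Across the genome the boxes were set beside the changes as a description. Of 254 tested genes whose window held ACGCGT, 15.7% were called lower and 9.06% higher in pRnhA, against 12.9% and 9.65% of the 4953 tested genes with a window. Of the 27 tested genes with at least 3 separate stretches, which include cdc22, cdt2, cdc18, mik1 and cig2, 8 were called lower in pRnhA and none higher, and their median was -0.15. Of these 8, 4 were cdc22, cdt2, mik1 and cig2 themselves; of the other 22 genes 4 were called lower, a share of 18.2% beside 12.9%, with a median of -0.10. In rnh1∆rnh201∆ none of either group was called. Among the 10 genes all 4 called in pRnhA held at least 3 stretches. Not called were cdc18 with 5 stretches, cdt1 with 2, cdc10 with 1, and suc22, spd1 and res2 with none. The 10 genes include known MBF targets and were chosen with earlier results known, so this is a description without a test.

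The genes most like cdc22 over the 8 libraries, by Pearson correlation of log2(value + 1) among 4532 genes with a mean of at least 200, were par2 (r = 0.99), bxi1 (r = 0.98) and sst2 (r = 0.98). For suc22 they were spt6 (r = 0.95), nup211 (r = 0.93) and sua7 (r = 0.92). Of the other members spd1 was nearest to cdc22 (r = 0.91, place 176) and mik1 next (r = 0.90, place 229), while suc22 took place 2206 (r = -0.05). The libraries share their groups and their scaling, and these values are descriptions without a test.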

How the data were processed

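Total RNA of 8 libraries was sequenced from directional libraries, per the labels' protocols. Per the submitters' processing notes, TopHat2 2.0.5 and DESeq2 were used and ASM294v2 is among the builds named; counting tool, annotation and strand use are not given in the sources used here. Per the file headers the authors deposited DESeq2 normalized counts, which are treated as a score because the authors rounded each value to at most 2 significant digits, with log2 fold changes and adjusted p-values of 2 decimals. The header does not name the reference of the deposited fold changes; those of the 10 genes lie close to the ratios to WT. Raw counts were not used here and depth is unknown, so no detection limit is given. The 18 DRIPc-seq and 3 small RNA samples were not analysed here.

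The values being normalized, limma-trend (limma 3.58.1, R 4.3.3) was run on log2(value + 1) for the 6456 genes whose mean was 1 or more, fitting the 3 groups together, 5 residual degrees of freedom, two-sided tests and Benjamini-Hochberg adjustment over all genes at 0.05. The fold change scale understates low genes. The fit was tested on simulated data. Alternatives were pseudocounts of 0.5 and 10, no filter, a mean of at least 50, library totals, a replicate block, 2 groups only, a mating-type term, the authors' adjusted p-values and leaving out each library; the mat1-Mc libraries alone were added after seeing the data. The members and lists were chosen with earlier results of these data known. Always named were the 10 genes and the 5 MBF partners and regulators; of every other list, up to 6 called genes per strain by size of change; and the 3 genes most like cdc22 and suc22. A gene that this rule names is not reported here. Deviations from the group means of same-numbered WT and pRnhA libraries correlated at 0.344, 0.355 and 0.601 across genes. Differently numbered libraries with the same mating-type transcript correlated about as highly as the first 2 of these. WT replicate 2 with pRnhA replicate 1 gave 0.374, and WT replicate 1 with pRnhA replicate 2 gave 0.325. Deviations of same-numbered WT and rnh1∆rnh201∆ libraries correlated at -0.167 and 0.385. Those of WT replicate 3 and rnh1∆rnh201∆ replicate 1, both with mat2-Pc, correlated at 0.376. Same-numbered pRnhA and rnh1∆rnh201∆ libraries correlated at -0.508 (replicates 1, with different mating-type transcripts) and 0.493 (replicates 2, both with mat1-Mc). Those of pRnhA replicate 3 and rnh1∆rnh201∆ replicate 1, both with mat2-Pc, correlated at 0.568. Every pair sharing a mating-type transcript was positive and every other pair negative, whatever the replicate numbers. Deviations of the 2 rnh1∆rnh201∆ libraries are equal and opposite, so their correlations mirror each other. The labels name no pairing, and whether a pairing by number adds to the shared mating type was not tested. The main fit held no term for either. Box positions came from the RefSeq genome and annotation of ASM294v3.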

Additional observations from a re-analysis of the deposited data

How the results depend on the processing

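Of the 10 genes, 4 were called in pRnhA with pseudocounts of 0.5 and 10, a mean of at least 50, a mating-type term and a replicate block, 2 with no filter or library totals, 3 with the 2 groups alone, 6 in the authors' deposited table, 0 in the mat1-Mc libraries alone (an alternative chosen after seeing the data), and 0 to 6 with 1 library left out. In rnh1∆rnh201∆ against WT the count was 0, except 2 in the authors' deposited table and 0 to 4 with 1 library left out. Over all genes, the replicate block gave 22 calls in rnh1∆rnh201∆ and 1287 in pRnhA against WT, and changed no call among the 10; its effect on the other lists stands with them. Calls over all genes in rnh1∆rnh201∆ against WT numbered 12 with a pseudocount of 0.5, 52 with 10, 12 with a mean of at least 50, 213 with library totals, 4 with the 2 groups alone, 932 in the authors' deposited table and 3 to 1264 with 1 library left out. In pRnhA against WT they numbered 1960 in the authors' deposited table, 0 in the mat1-Mc libraries alone and 212 to 2173 with 1 library left out; library totals turned the split to 1259 higher and 375 lower, beside 573 and 733. In rnh1∆rnh201∆ against pRnhA they numbered 35 with no filter, 72 with the 2 groups alone and 5 to 93 with 1 library left out.

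Of 530 log2 fold changes of the 10 genes under alternatives, 21 changed sign, all of values that were not called. Against WT in rnh1∆rnh201∆, library totals gave cdt2 0.000193 and cig2 0.0107, the mating-type term gave cdc10 -0.0208, the mat1-Mc libraries gave cdt2 0.0335 and cdc10 -0.0253, the authors' deposited table gave cig2 0.01, and leaving out 1 library gave cdc10 values between -0.081 and 0.0811. In pRnhA against WT, library totals gave suc22 0.014. In rnh1∆rnh201∆ against pRnhA, library totals gave cdc22 -0.0302 and spd1 -0.000877, the replicate block gave cdc18 0.0143, the mating-type term gave cdc22 -0.00534, and the mat1-Mc libraries gave cdc22 -0.057 and spd1 -0.074. There, leaving out 1 library gave cdc22 -0.068 to 0.107, spd1 -0.0233 to 0.121 and cdc18 -0.0809 to 0.0794. The cause was not tested for any of these. Where a fit left 1 rnh1∆rnh201∆ library, it was assumed to vary like the other groups. Values of 2 significant digits and unknown depth limit what small differences can show.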
